A study of Mus musculus with 6 samples.

Results

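The regions described here are the stretches of mouse chromosomes 1 to 19 where the ATAC-seq peaks of 6 libraries, joined wherever they overlapped or touched, spanned at least 5000 bp and included a peak from each library. Of 225467 joined regions, 48805 held a peak from all 6 libraries, and 1844 of these were wide, which is 0.818% of all joined regions and 3.78% of those called in every library. The libraries came from naive CD4 T cells of C57BL/6J mouse spleen, labelled wild type (WT), cultured toward Th9, Th2 or Th17 cells and collected on day 5 per the methods, with 2 libraries per subset, numbered replicate 1 and replicate 3. All cultures were activated with anti-CD3 and anti-CD28 and held anti-IFN-γ. Th2 cultures also received IL-4 and IL-2, Th9 cultures IL-4, IL-2 and TGF-β1, and Th17 cultures IL-6, TGF-β1, IL-23, IL-1β, anti-IL-4 and anti-IL-2. The study used these libraries to ask how accessible cytokine loci, Il9 above all, are in related helper subsets. No label says that replicates 1 and 3 came from separate animals, so p-values measure only the spread between these samples, which may be technical.

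ATAC-seq reads out where the Tn5 transposase can reach DNA, and a peak is a stretch where its insertions are denser than the background. Most peaks at promoters and enhancers are short, whereas broad open domains in T cells are known at highly transcribed activation genes and at clusters of enhancers. Repeated sequence can also pile up reads, because an aligner places reads from many copies on the few copies that an assembly holds. The peaks here were called in each library alone, in broad mode, with no control library and with the local background correction switched off, so each enrichment is a fold over 1 genome-wide background. For this reason the regions were sorted both by the genes they overlap and by how much of their sequence occurs elsewhere in the assembly. A region was counted as repeated where at least 50% of its 50-base words occurred more than once in the GRCm38.p6 assembly, as unique where under 10% did, and as mixed in between.

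The sequences of the strongest repeated regions are shown first, since they show the repeats of the most enriched regions. All coordinates are GRCm38 (mm10) and the printed sequences were chosen after the values were seen. The region with the highest enrichment, chr9:2999994-3038690, repeated itself every 234 bases, the length of the mouse major satellite unit. One unit from chr9:3019356-3019589, plus strand, is printed with capitals at the 207 bases that equal the base 234 positions further on. The stretch of the second most enriched region that matches it, from chr2:98666681-98666914, minus strand, has capitals at the 208 of 234 bases that it shares with that unit.
chromosome 9 unit: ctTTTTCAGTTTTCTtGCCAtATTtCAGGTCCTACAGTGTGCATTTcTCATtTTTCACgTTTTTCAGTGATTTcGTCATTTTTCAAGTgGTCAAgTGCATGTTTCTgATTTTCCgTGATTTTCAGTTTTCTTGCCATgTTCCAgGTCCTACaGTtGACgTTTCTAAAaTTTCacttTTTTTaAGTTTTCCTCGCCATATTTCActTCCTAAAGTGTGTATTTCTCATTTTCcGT
chromosome 2 match: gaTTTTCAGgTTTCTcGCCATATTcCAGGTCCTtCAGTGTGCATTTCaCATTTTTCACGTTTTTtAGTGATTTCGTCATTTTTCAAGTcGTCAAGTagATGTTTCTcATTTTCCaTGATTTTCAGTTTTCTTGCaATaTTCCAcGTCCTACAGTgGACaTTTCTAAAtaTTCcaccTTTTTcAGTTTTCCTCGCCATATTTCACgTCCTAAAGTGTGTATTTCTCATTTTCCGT

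A different repeat, with a period of 208 bases, ran through several strongly enriched regions that overlap no gene of the GENCODE basic set. In RefSeq, the region of the chromosome 3 copy overlaps S100a7l2, a protein-coding gene. The first unit comes from chr10:27822115-27822322, plus strand, with capitals at the 205 bases that equal the base 208 positions further on. The copies come from chr3:91095744-91095951, minus strand, and chr2:22003868-22004075, plus strand, with capitals at the 205 and 206 bases shared with the chromosome 10 unit.
chromosome 10 unit: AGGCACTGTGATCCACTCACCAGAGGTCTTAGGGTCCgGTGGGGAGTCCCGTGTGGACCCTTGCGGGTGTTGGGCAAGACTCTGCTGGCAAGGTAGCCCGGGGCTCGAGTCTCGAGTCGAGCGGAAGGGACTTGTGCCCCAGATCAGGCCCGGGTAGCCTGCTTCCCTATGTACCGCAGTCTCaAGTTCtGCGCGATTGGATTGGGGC
chromosome 3 copy: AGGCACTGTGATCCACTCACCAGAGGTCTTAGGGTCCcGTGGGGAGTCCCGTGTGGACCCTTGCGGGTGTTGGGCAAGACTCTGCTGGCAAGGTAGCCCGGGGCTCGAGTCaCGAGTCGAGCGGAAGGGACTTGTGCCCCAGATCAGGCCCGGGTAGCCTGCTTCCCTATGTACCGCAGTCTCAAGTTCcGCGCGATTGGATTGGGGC
chromosome 2 copy: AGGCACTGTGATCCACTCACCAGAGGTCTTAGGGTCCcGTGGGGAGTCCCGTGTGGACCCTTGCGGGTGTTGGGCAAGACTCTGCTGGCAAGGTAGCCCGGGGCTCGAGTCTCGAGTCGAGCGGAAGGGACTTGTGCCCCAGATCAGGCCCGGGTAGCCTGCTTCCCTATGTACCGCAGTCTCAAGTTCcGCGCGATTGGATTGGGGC

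Unique regions whose enrichment differed between subsets are represented by 4 windows of 300 bases. The Cish promoter is chr9:107296409-107296708, plus strand, and the Batf3 promoter chr1:191098164-191098463, plus strand, both as RefSeq gives them on GRCm38, with capitals at matches to the STAT motif TTCNNNGAA. The intronic Itpr1 window is chr6:108340965-108341264, plus strand, and the Ptprc window chr1:138136345-138136644, plus strand, both from stretches covered in all 6 libraries, with capitals at matches to the RUNX motif TGTGGTT.
Cish promoter: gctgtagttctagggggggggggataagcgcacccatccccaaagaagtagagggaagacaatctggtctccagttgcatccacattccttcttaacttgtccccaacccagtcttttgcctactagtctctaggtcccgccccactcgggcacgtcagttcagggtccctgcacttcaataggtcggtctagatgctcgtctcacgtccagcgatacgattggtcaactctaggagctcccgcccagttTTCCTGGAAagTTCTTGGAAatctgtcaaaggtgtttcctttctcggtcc
Batf3 promoter: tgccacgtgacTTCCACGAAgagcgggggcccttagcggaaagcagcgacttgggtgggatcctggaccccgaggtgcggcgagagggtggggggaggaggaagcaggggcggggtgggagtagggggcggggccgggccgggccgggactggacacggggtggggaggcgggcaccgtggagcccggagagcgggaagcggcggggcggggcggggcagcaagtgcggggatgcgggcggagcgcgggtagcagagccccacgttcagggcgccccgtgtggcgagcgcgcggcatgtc
Itpr1 window: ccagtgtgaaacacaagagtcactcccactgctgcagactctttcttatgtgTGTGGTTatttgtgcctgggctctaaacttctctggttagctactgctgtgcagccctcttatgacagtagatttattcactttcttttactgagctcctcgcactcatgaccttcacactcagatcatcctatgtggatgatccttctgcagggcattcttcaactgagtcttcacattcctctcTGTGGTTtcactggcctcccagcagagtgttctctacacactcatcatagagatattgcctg
Ptprc window: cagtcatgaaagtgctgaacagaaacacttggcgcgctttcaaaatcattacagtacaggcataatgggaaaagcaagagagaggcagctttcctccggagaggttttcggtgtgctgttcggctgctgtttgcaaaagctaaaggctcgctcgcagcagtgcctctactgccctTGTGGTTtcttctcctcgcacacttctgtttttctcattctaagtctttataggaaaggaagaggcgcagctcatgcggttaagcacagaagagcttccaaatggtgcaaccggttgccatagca

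Both strands were searched for 5 motifs. STAT and RUNX are spelled above, and AP-1 was taken as TGANTCA. The GATA motif was searched as its 6 letters AGATAA, and the cyclic AMP response element, CRE, as TGACGTCA, inside which the AP-1 letters cannot match. Of all 31396 RefSeq promoters of 300 bases, 8.35% held the STAT motif and 5.32% the RUNX motif, against 6.83% and 4.18% of the 981 promoters inside wide regions. The other motifs were found in 7.84% of all promoters and 4.99% of those in wide regions for AP-1, 11.2% and 7.85% for GATA, and 1.83% and 1.43% for CRE. Windows of 300 bases from the commonly covered stretches were counted for 1674 of 1844 wide and 32771 of 46961 narrower regions. AP-1 letters occurred in 9.74% of the windows of wide regions and 12.1% of those of narrower ones, and RUNX letters in 6.33% and 7.07%. The same shares were 6.81% and 8.75% for STAT, 10.2% and 7.73% for GATA, and 0.597% and 1.03% for CRE. These are matches of letters and not evidence of binding.

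The libraries differed before any region was chosen. The lists held between 100317 and 142213 peaks, the 3 replicate 1 lists being longer than the 3 replicate 3 lists, and the lowest fold enrichment in a list ranged from 1.71 to 2.11. Read totals are not given in the lists, so the depth of a library is unknown here. The labelled cell type was checked on marker genes. Promoters of 9 of 10 T cell markers lay in regions called in all 6 libraries, against 0 of 6 B cell, 1 of 7 myeloid, 2 of 5 CD8 T and NK cell and 2 of 4 erythroid markers. Over all protein-coding genes, 12944 of 20780 promoters (62.3%) lay in such regions. Bulk libraries cannot tell more cells of a type from more accessible DNA per cell.

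The wide regions spanned 16.8 Mb in all and between 11.5% and 14.0% of the autosomal bases that each library's peaks covered. Their widths ran from 5000 to 148863 bp with a median of 6522 bp, and 355 reached 10000 bp, 93 reached 20000 bp and 19 reached 50000 bp. The share of repeated sequence rose along that scale as a description, from 363 of 1844 regions to 146 of 355, 59 of 93 and 16 of 19. Width and a call in every library chose the regions, so neither is tested. At the limit, the members just inside were an intergenic stretch at chr1:190574242-190579241 and one in the body of Sik3, a salt-inducible kinase gene, at chr9:46172131-46177130, both 5000 bp wide with mean fold enrichments of 2.09 and 4.29. Just outside lay a 4999-bp stretch in Dgkd, a diacylglycerol kinase gene, at a fold of 2.74, and an intergenic stretch of 4998 bp at a fold of 18.3. A further 93 wide regions lacked a call in at least 1 library and were left out.

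A wide region was seldom open over its whole width in each library. The stretch covered by peaks of all 6 libraries had a median of 2330 bp, or 33.4% of the width, and it was absent in 65 regions, where the calls of the libraries shared no base. The common stretch reached 80% of the width in 117 regions, 152 regions were a single peak in every library, and 1409 held at least 1 peak of 5000 bp or more in some library.

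A gene was overlapped by 1438 of the regions (78.0%) and none by 406 (22%). Among the former, 668 (36.2% of all) reached the promoter window of a protein-coding gene, from 1000 bp upstream to 100 bp downstream of a start, 562 lay in a protein-coding gene body only, and 208 overlapped only other annotated genes. Of the 46961 narrower regions called in every library, 32.5% overlapped no gene. Of the 406 regions without a gene in the GENCODE basic set, 105 overlapped a gene in RefSeq.

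Repeated sequence made up 123 of the 406 regions without a gene (30.3%) and 240 of the 1438 at genes (16.7%), so it was found on both sides of that split. Unique sequence made up 247 (60.8%) and 1102 (76.6%). Repeated regions were wider, with a median of 8459 bp against 6293 bp for unique ones, and more evenly covered, with each library covering at least 50% of the width in 187 of 363 (51.5%) against 423 of 1349 (31.4%). Of the repeated regions 95 (26.2%) lay within 100 kb of an assembly gap, against 13 (0.964%) of the unique ones. Width and enrichment of every region are set against each other in the plot of all wide regions.

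**Figure D1:**
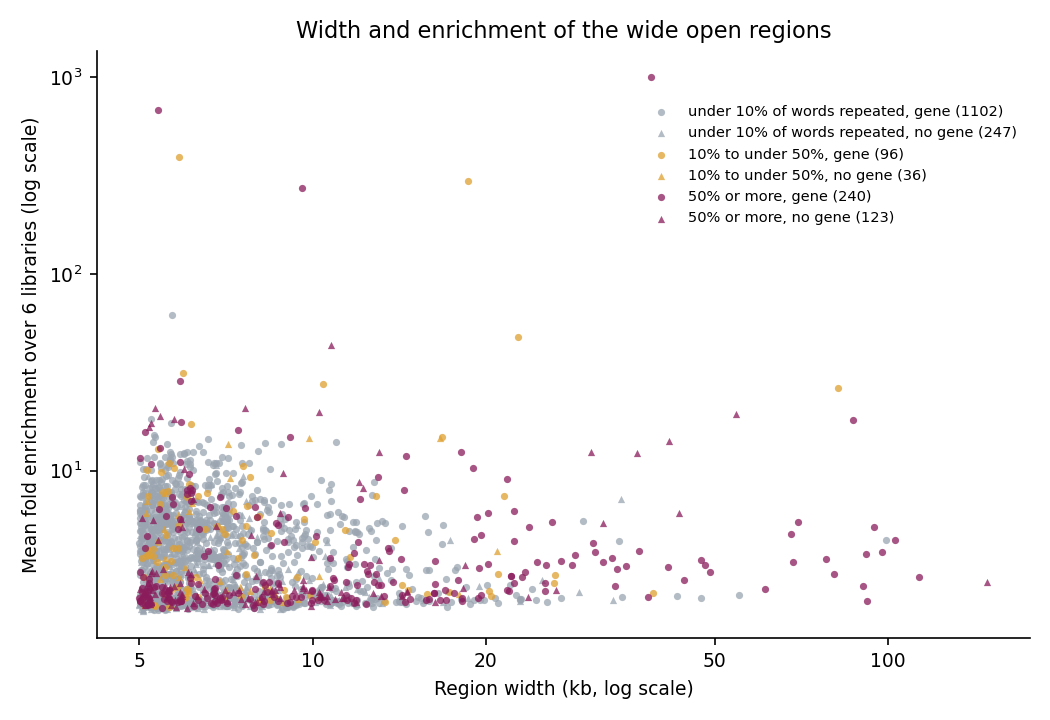
Width of each of the 1844 wide regions (horizontal, kb, log scale) against its fold enrichment averaged over the 6 libraries (vertical, log scale), coloured by the share of its 50-base words that occur more than once and shaped by whether it overlaps a gene. Most regions lie under a fold of 10, and the few above 100 are at annotated genes in repeated or mixed sequence.

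The median fold enrichment over the 6 libraries was 4.97 at protein-coding promoters, 2.69 in gene bodies, 2.86 at other genes and 2.47 without a gene. In unique sequence alone the promoter median was 5.35 and that of regions without a gene 2.48, and in repeated sequence they were 2.54 and 2.46. Narrower regions had higher medians at promoters, 6.45, and without a gene, 2.91.

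The strongest regions were few and their order was nearly the same in every subset. The chromosome 9 satellite region, which overlaps Mir101c and predicted genes at a width of 38697 bp, had fold enrichments, in replicates 1 and 3, of 853 and 1166 (Th9), 859 and 1113 (Th2), and 737 and 1265 (Th17), and ranked 1st in all subsets. All 6 libraries covered almost its full width. The second, at chr2:98662226-98667606, whose overlap is with predicted genes only, had folds of 876 and 652 (Th9), 662 and 568 (Th2), and 628 and 697 (Th17). Besides the chromosome 9 region itself, only this wide region had at least 10% of its own 20-base words in the chromosome 9 region, at 16.1%.

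The third was chr17:39842990-39848838, which overlaps CT010467.1 and AY036118, annotated where ribosomal RNA sequence is known to lie, with folds of 649.9 and 564 (Th9), 305 and 318 (Th2), and 321 and 211 (Th17). By fold it was the third in each subset, with higher folds in both Th9 libraries than in the other 4. Next came AC174800.1, a gene with no role known from its label, whose broader region at chr17:13535319-13553926 had folds of 422 and 327 (Th9), 410.1 and 194 (Th2), and 244 and 193 (Th17).

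The immunoglobulin heavy chain gene Ighm, expressed as protein in B cells, lay in a 5706-bp unique region at chr12:113421938-113427643. Its folds were 58.2 and 53.9 (Th9), 58.1 and 54 (Th2), and 90.3 and 56.3 (Th17), the highest of any unique wide region, while promoters of 0 of 6 B cell markers were in regions called in all libraries. Replicate 1 of Th17 stood above the other 5 libraries, which lay close together.

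The widest strongly enriched region at annotated genes was the 5S ribosomal RNA array on chromosome 8, with 41 annotated n-R5s genes at a median spacing of 1702 bases. The array at chr8:123537405-123624404 was 87000 bp wide with 86631 bp covered in all libraries, and its folds were 20.8 and 26.5 (Th9), 17.9 and 14.8 (Th2), and 14.4 and 14 (Th17). Both Th9 values were the highest. Sfi1, a centrin-binding protein gene of the centrosome, held a region of 82015 bp, chr11:3118884-3200898, with 81154 bp in common and folds of 25.3 and 23.5 (Th9), 29.3 and 31.4 (Th2), and 23.1 and 24.6 (Th17). Pisd-ps2, a pseudogene of phosphatidylserine decarboxylase, had folds of 29.4 and 23.1 (Th9), 32.6 and 32.7 (Th2), and 22.1 and 24.5 (Th17) over 10441 bp. By mean fold these regions ranked between 10 and 27 of 1844 in each subset.

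Other highly ranked regions at genes were shorter. A stretch of 5873 bp in the body of Sik3 had folds of 19.5 and 31.9 (Th9), 30.2 and 37.5 (Th2), and 33.1 and 19.5 (Th17), and 81.2% of its words were repeated. Akap6, an A-kinase anchoring protein gene, and Thada, a gene named for thyroid adenomas, held intragenic stretches of 93.2% and 91.2% repeated words with mean folds of 17.6 and 15.8. The promoter of Pja2, a ubiquitin ligase gene, was the exception with 0.962% repeated words, and its folds were 16.6 and 21 (Th9), 15.7 and 24.8 (Th2), and 17.4 and 14.5 (Th17).

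Among regions without a gene, the highest fold was at chr18:82160201-82170953, with 60.4 and 40.7 (Th9), 54.9 and 36.1 (Th2), and 37.5 and 32.2 (Th17). Regions built of the 208-base repeat followed. The chromosome 10 region, chr10:27818305-27825925, had folds of 26.2 and 18.9 (Th9), 22.5 and 17.1 (Th2), and 20.7 and 20.1 (Th17). In all, 7 wide regions, the chromosome 10 region included, had at least 10% of their own 20-base words in that region. Of these, 6 had no gene in the GENCODE basic set and 1 lay in the body of Filip1, a filamin-interacting protein gene. Their mean folds ran from 13 to 20.9. In each of the 7 regions the replicate 1 library exceeded replicate 3 in Th9 and in Th2, while the Th17 libraries lay close together. Peaks of all 6 libraries shared a median of 97.8% of their width.

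The widest region of all, chr6:114488981-114637843, overlapped no gene and was 148863 bp wide with 87.8% repeated words, yet its folds were only 3.53 and 2.61 (Th9), 2.79 and 2.44 (Th2), and 2.39 and 2.57 (Th17). It was covered over 147785 and 147164 (Th9), 144418 and 137303 (Th2), and 144038 and 146337 (Th17) bases, and ranked 1st by covered length in each subset while ranking between 1015 and 1164 by fold. On chromosome 8, chr8:20657483-20711946 spanned 54464 bp at folds of 26.5 and 18.8 (Th9), 21.8 and 14.7 (Th2), and 17.8 and 16.8 (Th17). Regions of 43341, 41699 and 36668 bp at chr8:55345727-55389067, chr6:47737129-47778827 and chr6:47650334-47687001 had mean folds of 6.08, 14.2 and 12.2. These lack a gene only in the GENCODE basic set. In RefSeq they overlap 7, 3 and 8 genes, with protein-coding genes in each and Rn4.5s, listed as rRNA, in the last.

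The 12 widest regions at genes, apart from the 5S array and Sfi1, were likewise mostly in families of similar genes. The KRAB zinc finger genes of distal chromosome 4, a family of presumed DNA-binding repressors, gave 4 of them. A region with Zfp988 at chr4:147208980-147322012 was 113033 bp wide and was covered over 69323 and 80528 (Th9), 106505 and 108937 (Th2), and 104928 and 110037 (Th17) bases, the shortest cover being in the Th9 libraries. The adjoining one, with Zfp988 and Zfp978, spanned 102719 bp, that of Zfp986 80638 bp, and that of Zfp992 and Zfp981 78111 bp, with 50.9% to 88.9% repeated words over these 4 regions. Per the methods, reads with a mapping quality under 10 were dropped, a filter that bears on near-identical genes, so values of single family members are uncertain.

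Of the rest, Sp110, Sp140 and Sp100, nuclear body protein genes known to respond to interferon, shared 94543 bp. Snhg14, the host of imprinted small nucleolar RNAs, held regions of 91811 and 91714 bp, and Tcp10c, a testis-expressed gene, one of 90506 bp. Only 2 of the 12 were of unique sequence. One, chr1:88211381-88310797, covered 99417 bp from Ugt1a1, a bilirubin glucuronosyltransferase gene, through Mroh2a and Hjurp, a centromere histone chaperone gene, to Trpm8, a cold-sensing channel gene. It had 2.01% repeated words and folds of 4.7 and 4.45 (Th9), 4.36 and 4.85 (Th2), and 4.01 and 4.29 (Th17), with 91502 bp open in all libraries. The other was 55092 bp in Phactr3, a phosphatase and actin regulator gene, at a mean fold of 2.32.

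Promoters in unique sequence formed the largest group at genes, with 535 regions. After the Ugt1a1 to Trpm8 stretch, the widest held Il4ra, the gene of the IL-4 receptor α chain, at chr7:125551330-125585438. Of its 34109 bp, peaks covered 13637 and 19964 (Th9), 23126 and 34109 (Th2), and 13539 and 13300 (Th17) bases. The Th2 libraries had the longest covers, the whole width in replicate 3, and the Th17 libraries the shortest, with Th9 replicate 1 beside them. Its rank by covered length was 41 in Th2, 72 in Th9 and 133 in Th17.

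Next in width was Tnfrsf8, the gene of the T cell costimulatory receptor CD30, at chr4:145295614-145325094. Of its 29481 bp, 10104 and 12871 (Th9), 23958 and 29481 (Th2), and 11044 and 18128 (Th17) bases were covered. The Th2 values lay above the other 4, although Th17 replicate 3 stood well above Th17 replicate 1. Tspoap1, with the leukocyte microRNA host Mir142hg, spanned 16872 bp and was covered over 14787 and 14999 (Th9), 15837 and 15998 (Th2), and 12701 and 12157 (Th17) bases, lowest in Th17. Dhrs3, a retinal reductase gene, spanned 16813 bp with 10563 and 9007 (Th9), 15235 and 13206 (Th2), and 8785 and 11019 (Th17) bases covered.

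Lif, the gene of the cytokine leukaemia inhibitory factor, ranked far apart in the 3 subsets, at 133 by covered length in Th2, 222 in Th9 and 1277 in Th17. Its 13731 bp were covered over 4835 and 11285 (Th9), 12074 and 12836 (Th2), and 3765 and 3419 (Th17) bases. Th9 replicate 1 lay near the Th17 values and Th9 replicate 3 near the Th2 values. These named promoters were taken by width after earlier results were known, and their covers are values without a called difference.

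Of 37 listed genes of the helper lineages, 4 had the promoter (10.8%) and 8 any part (21.6%) in a wide region, against 734 (3.53%) and 1030 (4.96%) of 20780 protein-coding genes. Promoter shares were no lower in 2 lists outside T cell functions, at 15% of 20 developmental factors and 13.3% of 15 general promoters. The T cell lists were compiled for what these genes do in T cells and with earlier results known, so the counts describe them and no more. Il9, the gene of the cytokine that marks Th9 cells, lay in a region of 5059 bp, chr13:56475091-56480149, that missed its promoter window. Peaks covered 3024 and 5041 (Th9), 2932 and 2955 (Th2), and 1271 and 1439 (Th17) bases of it. Replicate 3 of Th9 covered nearly all of it, Th9 replicate 1 as little as the Th2 libraries, and the Th17 libraries least.

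The fold enrichments at Il9 were 5.0 and 4.48 (Th9), 4.49 and 5.94 (Th2), and 5.86 and 4.62 (Th17), and the subsets overlapped. Gata3, the lineage regulator of Th2 cells, had its promoter in 5612 bp covered over 3366 and 3873 (Th9), 5398 and 4577 (Th2), and 4210 and 4313 (Th17) bases. Both Th2 values were the highest.

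Other cytokine genes were entered outside their promoters. The Il10 region, for an anti-inflammatory cytokine, had 2262 and 2956 (Th9), 3847 and 5970 (Th2), and 870 and 949 (Th17) of 5970 bases covered, and both Th17 values were the lowest. The receptor gene Tgfbr2, for TGF-β, had 2904 and 4791 (Th9), 4457 and 6142 (Th2), and 2129 and 3295 (Th17) of 6142 bases covered.

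T cell identity regulators reached wide regions mostly in their bodies, with 5 of 25 promoters and 12 of 25 genes in any part. Ets1, a transcription factor gene, held 3 such regions, of which the longest, chr9:32707802-32723532, was covered over 5945 and 6872 (Th9), 13291 and 13449 (Th2), and 4116 and 4310 (Th17) of 15731 bases. The Th2 libraries covered most of it and the other 4 well under that. Zbtb7b, which encodes the CD4-lineage factor ThPOK, had its promoter in 11766 bp with 9198 and 11766 (Th9), 10254 and 10256 (Th2), and 9110 and 9062 (Th17) bases covered. Bach2, Lef1 and Ikzf1, which encode transcription factors of lymphocytes, had 2 wide regions each.

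Activation and feedback genes had 12 of 28 promoters in wide regions (42.9%), the largest share of the 6 lists of genes chosen by function. Junb, an AP-1 subunit gene, lay in chr8:84973902-84986700, where 12753 and 12799 (Th9), 12401 and 12763 (Th2), and 10302 and 10280 (Th17) of 12799 bases were covered. Both Th17 libraries covered less than the other 4, which were close to complete. Fold enrichments there were 10.3 and 12 (Th9), 7.23 and 8.08 (Th2), and 8.38 and 6.41 (Th17), and both Th9 values were the highest.

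Socs1, a feedback inhibitor of cytokine receptors, had 8686 and 9268 (Th9), 9024 and 9833 (Th2), and 6739 and 6851 (Th17) of 9953 bases covered, again least in Th17. Its folds were 9.29 and 10.9 (Th9), 5.61 and 6.46 (Th2), and 7.16 and 4.96 (Th17). Zfp36, which encodes an mRNA-destabilizing protein, shared 12663 bp with Plekhg2 and had 8658 and 10640 (Th9), 11462 and 9704 (Th2), and 9414 and 9926 (Th17) bases covered. Jund, Nr4a3 and Dusp2, genes of an AP-1 subunit, an orphan nuclear receptor and a MAP kinase phosphatase, had widths of 10752, 6766 and 7758 bp. In Nr4a3 and Dusp2 the stretch open in all 6 libraries reached 5661 and 6512 bp.

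Surface and costimulation genes had 5 of 25 promoters and 10 of 25 genes in any part of a wide region. Tnfrsf4, the gene of the costimulatory receptor OX40, had 6519 and 6549 (Th9), 9148 and 8731 (Th2), and 2372 and 2240 (Th17) of 9568 bases covered. The subsets did not overlap, Th2 covering most and Th17 least. Pdcd1, the gene of the inhibitory receptor PD-1, had a promoter region of 9069 bp with 6868 and 6737 (Th9), 7963 and 9069 (Th2), and 4248 and 5111 (Th17) bases covered, and Ccr7, a lymph node homing receptor gene, one of 6293 bp with 4687 and 6247 (Th9), 4980 and 5828 (Th2), and 4674 and 3308 (Th17).

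Genes outside the T cell lists were also present. Of 20 developmental factors, 3 had promoters in wide regions, namely Pax6, Foxa2 and Wt1, regulators of eye, endoderm and kidney development. Pax6 had 16993 and 10933 (Th9), 17440 and 16993 (Th2), and 16133 and 15233 (Th17) of 17667 bases covered at folds of only 3.85 and 3.07 (Th9), 3.15 and 3.19 (Th2), and 2.71 and 2.8 (Th17). Of 15 general promoters, 2 were included, among them that of Actb, the β-actin gene, with 15665 bp. The listed promoters are set side by side in the plot of their covered lengths.

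**Figure D2:**
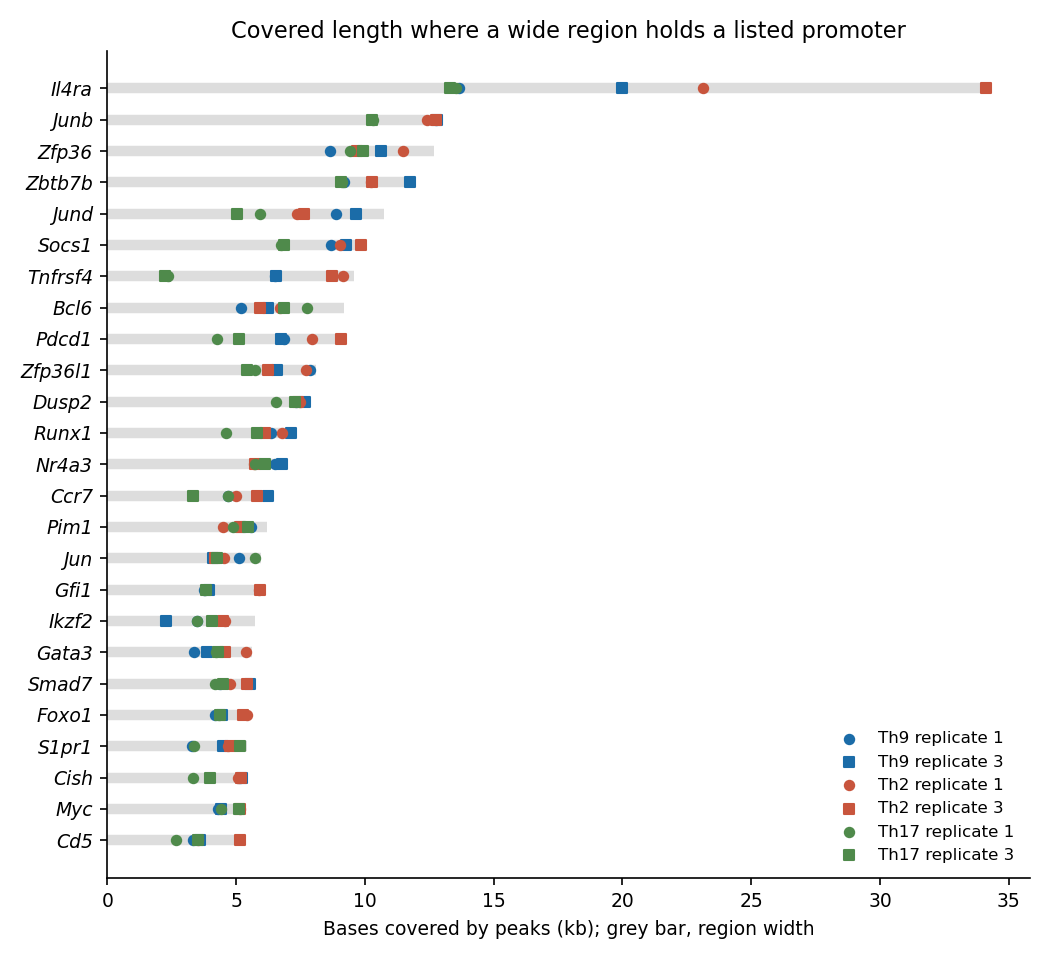
Bases covered by peaks in each library (points, kb) at each wide region that holds the promoter of a reported T cell gene of the lists, with the region's width as a grey bar. In Il4ra the Th2 libraries cover 23126 and 34109 bp, and in Tnfrsf4 the Th17 libraries cover 2372 and 2240 bp.

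Over all wide regions, the Th2 libraries covered the most sequence on average. Peaks covered 11.6 and 9.95 Mb (Th9), 13.4 and 12 Mb (Th2), and 12.2 and 12.1 Mb (Th17), or 10.8 ± 1.15, 12.7 ± 0.981 and 12.1 ± 0.0382 Mb (mean ± SD, n = 2 each). The ranges overlapped, as Th2 replicate 3 lay below both Th17 libraries. Subset accounted for 0.633 of the variance among libraries. Such a share lies well above 0 even without a subset effect when each subset has only 2 libraries. Cover comes from the same peaks as the widths that chose the regions, so it is given as a description without a test.

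The order of the subsets depended on the kind of sequence. At protein-coding promoters peaks covered 68.5% and 68.7% of the width (Th9), 84.0% and 82.7% (Th2), and 72.7% and 77.3% (Th17), with no overlap between subsets. In repeated regions the values were 71.2% and 72.2% (Th9), 87.0% and 77.0% (Th2), and 87.5% and 92.3% (Th17), and here Th17 was the highest. Unique regions overlapped between subsets, at 68.4% and 51.9%, 75.5% and 67.2%, and 64.3% and 61.1%. Regions without a gene had 69.4% and 53.7% (Th9), 74.7% and 62.6% (Th2), and 74.9% and 74.5% (Th17).

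**Figure D3:**
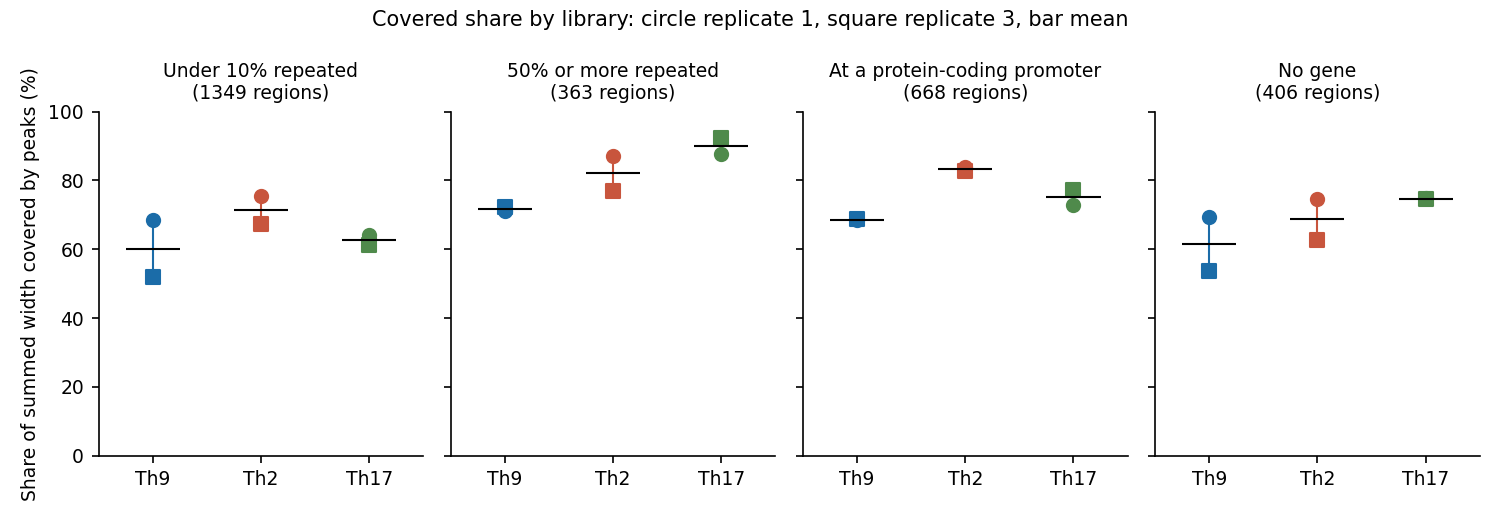
Share of the summed width covered by peaks (vertical, percent) for each library (circle, replicate 1; square, replicate 3; bar, mean) in 4 sets of wide regions. At protein-coding promoters Th2 lies above the other subsets, at 84.0% and 82.7%, and in repeated regions Th17 lies above, at 87.5% and 92.3%.

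Variance by subset was 0.842 of the total in repeated regions, 0.441 in unique ones and 0.728 in regions at a gene. The limit on such shares given above holds here too. Counted by region, the subset with the longest mean cover was Th2 in 928 of 1844 (50.3%), Th17 in 650 and Th9 in 266. In unique promoter regions it was Th2 in 377 of 535 (70.5%), Th17 in 83 and Th9 in 75, and in repeated regions Th17 in 245 of 363 (67.5%), Th2 in 89 and Th9 in 29. Among 57 regions of the gene lists it was Th2 in 36, Th9 in 14 and Th17 in 7. Over all autosomal peaks, the lists covered 98.2 and 78.0 Mb (Th9), 113 and 105 Mb (Th2), and 91.2 and 86.4 Mb (Th17). Both Th2 lists thus covered the most sequence outside the choice of wide regions too. The longest cover was not counted over all regions, so these counts describe the wide regions and no more. List length and lowest fold also differed between libraries, and their part in these orders was not tested. With lists cut to equal length the share of variance by subset was 0.648, and with peaks of a -log10 q of at least 5 it was 0.864.

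Similarity of the covered bases was described in the same way. The base-pair Jaccard index, which is the covered bases shared by a pair over those covered by either, was 0.656 for the Th9 pair, 0.731 for Th2 and 0.761 for Th17. Pairs within a subset averaged 0.716 ± 0.0538 (SD, 3 pairs) and those between subsets 0.668 ± 0.0289 (SD, 12 pairs). The gap was 0.0480, and 7 of the 12 pairs between subsets exceeded the Th9 pair. With peaks of a -log10 q of at least 5 the gap was 0.0998 and 0 of the 12 exceeded it.

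Fold enrichment of single regions was compared with limma on log2 values, quantile-normalised over libraries and fitted to all 48805 regions called in every library, with Benjamini-Hochberg adjustment. The value of a library was the mean fold of its peaks in a region, weighted by length. Of the 1844 wide regions, 112 (6.07%) passed an adjusted p of 0.05 in at least 1 contrast. Repeated sequence held 2 of the 112, while 363 of the wide regions were repeated. Neither count was made over all regions, so only the shares per contrast are compared. Th9 exceeded Th2 in 15 wide regions (0.813%) against 1.09% of all regions, and fell below it in 11 (0.597%) against 2.17%. Th9 exceeded Th17 in 41 (2.22%) against 3.21% and fell below it in 18 (0.976%) against 3.02%. Th2 exceeded Th17 in 38 (2.06%) against 5.17% and fell below it in 24 (1.30%) against 2.48%.

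Every one of these 6 shares was below that of all regions. The median log2 difference over wide and over all regions was 0.05 and 0.02 for Th9 minus Th2, 0.01 and -0.00 for Th9 minus Th17, and -0.03 and -0.03 for Th2 minus Th17. With median centring, the median of all regions moved from 0.02 to 0.12 for Th9 minus Th2. The split in that contrast became 23 higher and 4 lower among wide regions, against 1071 and 962 of all 48805. Calls over all regions also fell in each fit without a library that is given next. Without Th9 replicate 1 or 3, Th2 replicate 1 or 3, or Th17 replicate 1 or 3, the count for Th9 and Th2 was 10, 1, 5, 3, 3 and 3 in place of 26, and 15 of the 26 were called in none of these 6 fits. For Th9 and Th17 it was 28 and 21 without Th9 replicate 1 or 3 and 11 and 6 without Th17 replicate 1 or 3, in place of 59. For Th2 and Th17 it was 29 without Th2 replicate 3 and 18 and 9 without Th17 replicate 1 or 3, in place of 62.

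The largest difference was in the body of Itpr1, which encodes the inositol trisphosphate receptor of calcium stores. In the 5121-bp region chr6:108336620-108341740, the one with the printed RUNX matches, folds were 7.49 and 6.82 (Th9), 7.46 and 8.55 (Th2), and 2.68 and 2.41 (Th17). Both Th17 values lay far below the other 4. Th2 exceeded Th17 by 1.58 (log2, SE 0.17, limma adjusted p = 9.03e-05) and Th9 exceeded it by 1.29 (SE 0.17, adjusted p = 0.000763), and both calls held without any 1 library. A neighbouring Itpr1 region, chr6:108324335-108330856, had folds of 5.69 and 8.13 (Th9), 4.8 and 5.86 (Th2), and 2.95 and 2.35 (Th17) and log2 differences of 0.83 for Th2 and 1.14 for Th9 against Th17.

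Ppp3ca, the gene of a catalytic subunit of calcineurin, was higher in Th2 than in Th17. It had folds of 9.1 and 7.71 (Th9), 10.2 and 10.5 (Th2), and 4.48 and 4.56 (Th17). Both Th2 values were highest and both Th17 values lowest, a log2 difference of 1.12 (SE 0.18, limma adjusted p = 0.00138). The covered lengths ran the other way, at 1786 and 782 (Th9), 1229 and 2169 (Th2), and 5263 and 5991 (Th17) bases. Plcb4, a phospholipase C gene, had folds of 5.32 and 4.79 (Th9), 7.04 and 8.43 (Th2), and 4.03 and 3.17 (Th17), and Th2 exceeded Th17 by 1.0 on the log2 scale.

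Camk2d, a calcium and calmodulin dependent kinase gene, had folds of 4.77 and 3.51 (Th9), 8.54 and 7.32 (Th2), and 8.78 and 4.77 (Th17). Th9 lay below Th2 by 1.01 (log2, limma adjusted p = 0.028), but with the highest fold in the region in place of the mean the difference shrank to -0.46 (adjusted p = 0.321). In Slc24a3, a sodium, potassium and calcium exchanger gene, 2 regions were lower in Th9 than in Th2, with log2 differences of -0.86 and -0.79 that held in 4 and 1 of the 6 fits without a library. With median centring neither was called (adjusted p = 0.114 and 0.0919).

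Higher in Th9 than in Th17 was Cish, the gene of a STAT5-induced feedback inhibitor. It had a promoter region at chr9:107294040-107299342 with folds of 8.44 and 10.3 (Th9), 6.24 and 6.5 (Th2), and 4.82 and 3.74 (Th17). Both Th9 values were highest and both Th17 values lowest, a log2 difference of 0.84 (SE 0.17, limma adjusted p = 0.0088), called in 3 of the 6 fits without a library. Its window held both printed STAT matches. A second region of 7810 bp, chr9:107302254-107310063, had folds of 5.73 and 6.4 (Th9), 5.75 and 5.71 (Th2), and 3.53 and 2.66 (Th17), with Th9 and Th2 above Th17 by 0.77 and 0.74. In those regions the Th17 libraries also covered the fewest bases, 5130 and 5224 (Th9), 5054 and 5176 (Th2), and 3316 and 3973 (Th17) at the promoter.

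Batf3, the gene of a basic leucine zipper factor, had folds of 6.31 and 7.77 (Th9), 4.39 and 5.18 (Th2), and 3.14 and 2.74 (Th17) at its promoter region. The subsets did not overlap, and Th9 exceeded Th17 by 1.01 (log2, SE 0.18, limma adjusted p = 0.00418), called in 5 of 6 fits without a library. The nearby Atf3, a stress-induced gene of the same class of factors, had folds of 7.72 and 9.36 (Th9), 5.53 and 5.71 (Th2), and 4.2 and 3.4 (Th17). Th9 exceeded Th17 there by 0.88 (log2, limma adjusted p = 0.00687). That call was lost without Th9 replicate 3 or either Th17 library, and on within-list percentiles (limma adjusted p = 0.289). S1pr1, the gene of a receptor for lymphocyte egress, had folds of 8.23 and 7.9 (Th9), 5.54 and 5.95 (Th2), and 3.65 and 3.91 (Th17) and a difference of 0.83.

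Further genes were called in the same direction. Cdk6, a cyclin-dependent kinase gene, had folds of 6.94 and 7.77 (Th9), 5.24 and 7.4 (Th2), and 3.8 and 2.94 (Th17), and Th9 exceeded Th17 by 0.89. Ccnd2, the gene of cyclin D2, had folds of 7.57 and 8.81 (Th9), 5.76 and 6.6 (Th2), and 4.43 and 3.91 (Th17) and a log2 difference of 0.68. Cd2, an adhesion receptor gene, and Il24, a cytokine gene of the IL-10 family, had differences of 0.66 and 0.74. Each of these 4 calls held in 2 or 3 of the 6 fits that left out a library. Fits without a Th2 library leave both subsets of this contrast whole, so they test the calls less.

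Higher in Th2 than in Th17 were Htr1b, a serotonin receptor gene, by 1.07 with folds of 4.45 and 3.47 (Th9), 5.89 and 5.96 (Th2), and 2.66 and 2.45 (Th17), and Shroom3, an actin-binding protein gene, by 1.01 with folds of 5.01 and 5.21 (Th9), 5.48 and 6.7 (Th2), and 2.88 and 2.53 (Th17). The Th2 and Th17 values did not overlap at either gene, and both calls held without any 1 library. By the highest fold in the region the Shroom3 difference was 0.54 (limma adjusted p = 0.078). Ikzf1 and Dhrs3, genes of the factor Ikaros and a retinal reductase, were called with differences of 0.60 and 0.70.

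Lower in Th2 than in Th17 was Ptprc, the gene of the leukocyte phosphatase CD45, with the other printed RUNX match. Folds at chr1:138133220-138138944 were 6.84 and 6.76 (Th9), 4.48 and 5.27 (Th2), and 9.75 and 7.19 (Th17), and the difference was -1.0 (log2, SE 0.17, limma adjusted p = 0.00181). Covered lengths were 1563 and 1651 (Th9), 4234 and 5725 (Th2), and 601 and 809 (Th17) bases, so that the libraries with the longest cover had the lowest mean fold. Cover and fold ran in opposite directions at Ppp3ca and Ptprc, and the part of covered length in these differences was not tested. By the highest fold in the region both calls were kept, at 0.88 (limma adjusted p = 0.0163) and -1.0 (adjusted p = 0.00286), and on within-list percentiles neither was (adjusted p = 0.356 and 0.0723).

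Wwox, an oxidoreductase gene, Srgap1, a GTPase-activating protein gene, and Cdc42ep3, a Cdc42 effector gene, were also lower in Th2 than in Th17. The folds at Wwox were 4.96 and 3.22 (Th9), 2.46 and 2.24 (Th2), and 4.11 and 3.6 (Th17), and those at Srgap1 5.11 and 3.47 (Th9), 3.45 and 2.89 (Th2), and 5.36 and 4.41 (Th17). Wwox was separated between Th2 and the other subsets, while Th9 replicate 3 came near Th2 replicate 1 at Srgap1. Fits without a Th9 library leave both subsets of this contrast whole, so they test the call less. The calls at Wwox, Srgap1 and Cdc42ep3 held in 3, 3 and 4 of the 6 fits without a library.

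Lower in Th9 than in Th17 was Ighm by 1.02 on the log2 scale (limma adjusted p = 0.00598), although the folds as deposited overlapped. Quantile normalisation sets the highest values of each list to common levels. With median centring the difference was -0.49 (adjusted p = 0.615), and without Th17 replicate 1 it was -0.87 (adjusted p = 0.0942). The shared promoter region of Dcun1d3, a neddylation gene, and Lyrm1 had folds of 6.52 and 8.11 (Th9), 6.32 and 9.07 (Th2), and 12 and 11.6 (Th17), a difference of -0.96, which by the highest fold was -0.44 (adjusted p = 0.168). Cst7, which encodes cystatin F, had folds of 2.96 and 2.34 (Th9), 2.98 and 3.63 (Th2), and 3.86 and 4.04 (Th17) and a difference of -0.78. By the highest fold the Cst7 difference was -0.34 (adjusted p = 0.425), and the call was lost without any 1 of the Th9 or Th17 libraries.

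Higher in Th9 than in Th2 were Clec2d, a lectin ligand gene of lymphocytes, by 0.82 with folds of 8.42 and 7.82 (Th9), 4.28 and 4.8 (Th2), and 5.29 and 4.49 (Th17), and the region of Ier3, an immediate early gene, with Flot1, by 0.77. Covered length at Clec2d was 1417 and 1333 (Th9), 7052 and 7748 (Th2), and 1907 and 5482 (Th17) bases, longest in both Th2 libraries. Rara, the gene of retinoic acid receptor α, Furin, a proprotein convertase gene, and Lmna, the gene of lamins A and C, differed by 0.65, 0.71 and 0.72. None of these 3 calls, nor that at Ier3 and Flot1, held in any fit that left out a library, and that at Clec2d held in 2 of 6, those without a Th17 library. The normalised values of the named regions are drawn library by library.

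Covered length gave no region past an adjusted p of 0.05 in limma, wide or not, in any of the 3 contrasts (0% of all regions). At an unadjusted p under 0.05, cover was longer in Th9 than in Th2 at 73 wide regions (3.96%) against 4.83% of all regions and shorter at 231 (12.5%) against 6.77%. Th9 was longer than Th17 at 176 (9.54%) against 7.18% and shorter at 196 (10.6%) against 7%. Th2 was longer than Th17 at 242 (13.1%) against 7.82% and shorter at 105 (5.69%) against 5.02%. With peaks of a -log10 q of at least 5 only, limma called 16 (1.57%), 35 (3.43%) and 19 (1.86%) of 1021 wide regions for Th9 and Th2, Th9 and Th17, and Th2 and Th17, against 0.59%, 2% and 1.52% of all 24418 regions. A region can reach the width limit through the long peaks of 1 subset, and the lists held 867 and 850 peaks of 5000 bp or more in Th2 against 432 to 645 elsewhere. The rule can therefore favour longer Th2 cover, and nothing is read from these shares.

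Wide regions were gathered along the chromosomes. When members less than 200 kb apart were linked, a limit set after the positions had been seen, 39 groups of 6 or more held 703 regions (38.1%). Of these groups 10 were of repeated sequence (261 regions), 3 mixed (23) and 26 unique (419). The largest repeated groups were 80 regions at chr5:93487531-95759876, with the genes BC061212 and AA792892, and 77 at chr4:145257105-147821847, with the zinc finger genes above.

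The largest unique group, 65 regions at chr2:177896610-179810320, held Phactr3 and the cadherin gene Cdh4. Others lay at Trp73 and Prdm16, a p53 family gene and a brown fat regulator gene, with 29 regions, at Ptprn2, a neuroendocrine phosphatase gene, with 27, at Dscam, a neuronal adhesion gene, with 27, and at Gli2, a Hedgehog pathway factor gene, with 12. Their median folds were low, from 2.1 to 2.27. In 19 unique groups with a median fold under 2.5, holding 341 regions over 3.22 Mb, peaks covered 75.8% and 35.2% of the width (Th9), 70.3% and 44.9% (Th2), and 75.5% and 59.1% (Th17). In 18 of the 19 groups the replicate 1 library covered more than the replicate 3 library in all 3 subsets, which the plot of these groups shows.

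**Figure D4:**
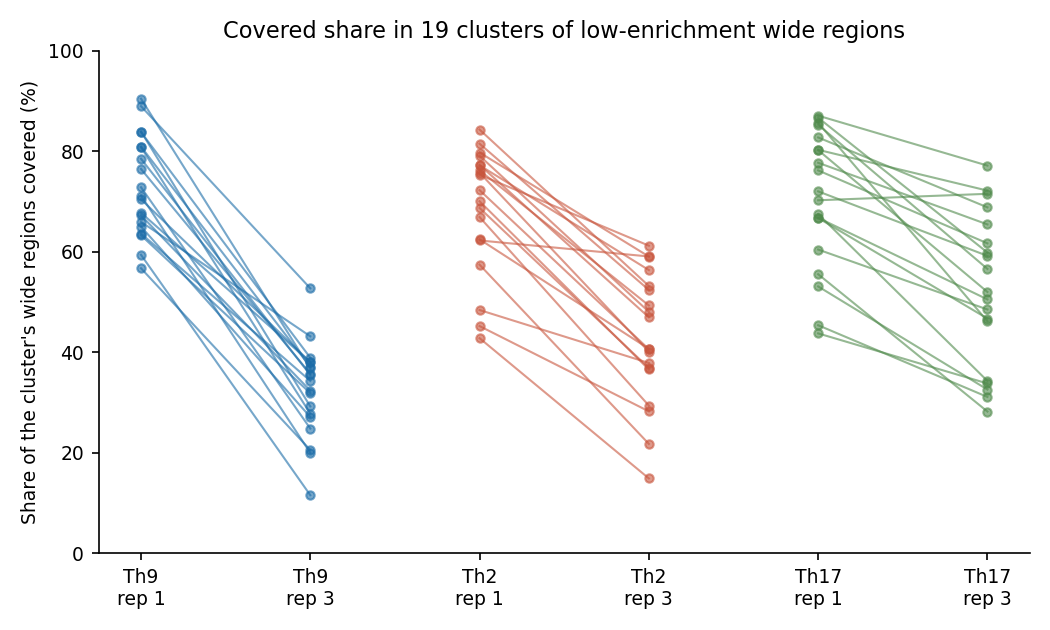
Share of the summed width of wide regions covered by peaks (vertical, percent) in 19 groups of neighbouring unique regions with a median fold under 2.5, 1 line per group, joining replicate 1 and replicate 3 of each subset. Replicate 1 lies above replicate 3 in all 3 subsets for 18 of the 19 groups.

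In these groups the replicates of each subset lay further apart than the means of the subsets, and the replicate 1 lists were also the longer ones. The part of list length in this was not tested. In the groups of repeated sequence the pattern was not shared, with 65.6% and 68.2% covered (Th9), 86.2% and 75.8% (Th2), and 86.8% and 91.5% (Th17). There, replicate 1 exceeded replicate 3 in all subsets in 1 of 10 groups.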

How the data were processed

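ATAC-seq libraries of Th9, Th2 and Th17 cells (2 each) were sequenced as paired reads of 50 bases. Per the submitters' processing notes and methods, the authors trimmed reads with Trim Galore 0.4.3, aligned them with Bowtie2 to mm10, removed duplicates with Picard, dropped reads with a mapping quality under 10, and called broad peaks per library with MACS2 2.1.0 (paired-end mode, no local background, no control). The deposited lists give each peak a fold enrichment (a ratio over the genome-wide background), −log10 p and −log10 q values, and a display score, which was not used. No counts are given, so depth and its precision are unknown.

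Peaks of chromosomes 1 to 19 were joined where they overlapped or touched, and each region's covered bases and length-weighted mean fold were taken per library. Genes came from the GENCODE M21 basic set, overlapping by at least 1 bp, and 50-base words were sampled every 50 bases of GRCm38.p6. No peak lay past a chromosome end of that assembly. Differences were fitted with limma 3.58.1 (R 4.3.3; log2, quantile-normalised, trend, all 6 libraries, Benjamini-Hochberg over 48805 regions per contrast). On simulated data over 48805 regions, 94%, 82% and 90% of planted log2 changes of 1 were recovered for Th9 against Th2, Th9 against Th17 and Th2 against Th17, and 6%, 13% and 10% of changes of 0.5. False calls numbered 7, 8 and 5. The simulated noise was independent and normal at the spread limma had fitted, so recovery in the real data may be lower. Tables were made with Python 3.11.15, numpy 2.4.6 and pandas 2.3.3.

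Totals of covered length and similarity of covered bases are given without a p, since both come from the peaks that set the widths. The regions and gene lists were chosen with earlier results of these data known. Named were the 12 widest regions at a gene, the 10 at a gene with the highest within-list percentile of fold, the 5 largest called differences per contrast and direction, listed genes in a wide region, the 10 most enriched and 5 widest regions without a gene, and 2 regions on either side of the width limit. Genes named by Gm and a number or ending in Rik were left out, and a few listed genes, though counted, are not reported here. Ccnd2, Rara, Furin, Lmna, Filip1, the chromosome 2 satellite region, the broader AC174800.1 region, the groups of neighbouring regions and further wide unique promoters (Tnfrsf8, Tspoap1, Dhrs3 and Lif) were singled out after their values were seen.

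Alternatives were other width, q and fold limits, other gene definitions, median centring, the highest fold, within-list percentiles, regions of 1000 bp or more, lists of equal length, a replicate block and each library left out. For any contrast, the 6 fits without a library include those that leave out the 2 libraries of the subset outside it.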

Additional observations from a re-analysis of the deposited data

How the results depend on the processing

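The number of wide regions (of those without a gene) was 3308 (739) at a width of at least 4000 bp, 648 (141) at 7500 bp, 355 (72) at 10000 bp, 1021 (154) with peaks of −log10 q of at least 5, 540 (63) with folds of at least 4, 669 (115) where each library covered 50% of the width, and 257 (46) where all 6 shared 5000 bp. Regions without a gene numbered 614 when only protein-coding genes counted and 249 with 10 kb added on either side of genes. Leaving out a library gave 1613 to 1800 regions, 359 to 412 of them without a gene. With peaks of −log10 q of at least 5, calls of fold enrichment were 33 for Th9 and Th17 and 38 for Th2 and Th17, and calls of covered length were 16 for Th9 and Th2, 35 for Th9 and Th17, and 19 for Th2 and Th17, where none had been made. Over all 24418 regions of that setting, calls of fold enrichment were 685 higher and 502 lower for Th9 against Th17, and 1375 and 449 for Th2 against Th17. On within-list percentiles there were 0, 16 and 19 calls for Th9 and Th2, Th9 and Th17, and Th2 and Th17. Over all 48805 regions these were 0, then 647 higher and 243 lower, then 1009 and 211. At an unadjusted limma p under 0.05 the count of 0 became 84 wide regions higher and 110 lower, against 3756 and 3801 of all 48805. Leaving out a library gave 1 to 10, 6 to 65 and 9 to 70 calls of enrichment, 0.470 to 0.843 for the share of variance in total cover that lay between subsets, and 0.0266 to 0.0772 for the difference in similarity. The cause of these changes was not tested, except that fits without a library hold fewer samples.

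The numbers 1 and 3 recur in each subset, but no label says that same-numbered libraries share a source. They were not treated as pairs in the main fits, though a pairing remains possible. After quantile normalisation, deviations of same-numbered libraries correlated at 0.21 between Th9 and Th2 but at -0.002 between Th9 and Th17. That step removes differences in level between whole lists, and the replicate 1 list was the longer in each subset. With the replicate block limma called 35, 67 and 70 wide regions. Over all 48805 regions it called 701 higher and 1328 lower for Th9 against Th2, 1737 and 1644 for Th9 against Th17, and 2709 and 1370 for Th2 against Th17. The share of variance in cover and the gap in similarity were then 0.846 and 0.0606. Of 30 named differences, 30 were kept with the block, 29 among regions of 1000 bp or more, 25 with median centring, 21 by the highest fold and 7 on within-list percentiles. Without Th9 replicate 1 or 3, Th2 replicate 1 or 3, and Th17 replicate 1 or 3, 19, 16, 20, 19, 15 and 11 were kept, and none of the 30 changed direction in any alternative. Without read counts, differences at low folds cannot be told from those in depth.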
